A study of Mus musculus with 28 samples.

Results

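The report follows 9 genes, Prr13, Cdca7l, Syngr2, Glrx, Lgmn, Lypd6b, Samd3, Xkrx and Fibcd1, out of 23420 gene symbols counted in CD4 T cells of mice that carry or lack an enhancer of Foxp3. They were chosen by their measured fold changes: deleting the enhancer (KO) changed their RNA more in thymic regulatory T (Treg) cells than in the other populations of the series. Of the 9, 5 genes were higher in KO thymic Treg cells and 4 were lower. All 9 passed the filter on low counts, which kept 13338 genes. The values that chose them, KO against wild type (WT) in each population, are therefore given as a description with no test. Tests are kept for contrasts the choice did not use: the difference between the 2 splenic Treg populations, and the difference between splenic Treg cells and thymic CD4 single-positive (CD4SP) cells.

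RNA-seq was run on 28 libraries from male littermates aged 6 to 8 weeks. All mice carried a Foxp3-gfp reporter allele. It was either otherwise wild type (Foxp3-gfp, WT) or lacked conserved non-coding sequence 3 (Foxp3ΔCNS3-gfp, KO), so every comparison is between reporter mice, and the deletion was present in every cell of the KO mice. The 4 sorted populations were thymic Treg cells, thymic CD4SP cells (conventional CD4+ cells, titled mCD4SP), and splenic rTreg and aTreg cells, whose r and a the titles do not spell out. Each had 3 WT and 4 KO libraries. The labels do not say whether the libraries of a group came from separate animals, and the series' design text speaks of 2 littermates, so p-values measure the spread between these libraries, which may be technical.

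Treg cells are CD4 T cells that restrain immune responses and depend on the transcription factor Foxp3. They arise in the thymus, where CNS3 is known for helping precursors switch Foxp3 on, and they settle in the spleen as resting cells and as activated cells that have met antigen. The 9 genes do not form a known pathway. Glrx acts in redox control, Lgmn in lysosomal proteolysis, Syngr2 in vesicle membranes and Cdca7l in the nucleus, while Lypd6b, Xkrx and Fibcd1 encode proteins of the cell surface or membrane.

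Promoter sequence was taken from RefSeq (GRCm38.p6) for the 7 of the 9 genes that had an entry there; Prr13 and Lypd6b had none. The 250 bases before each annotated start were searched on both strands for 6 motifs, and 2 windows are printed because they hold the AP-1 letters, the motif of a factor family known for its role in T cell activation. AP-1 (TGANTCA) was found in Glrx and Xkrx, in a search where 7.82% of 27025 genes held it. The E-box (CACGTG, held by 6.86% of genes) was found in 1 of the 2 Lgmn windows. The letters of the forkhead motif (TGTTTAC, 3.54%), NF-kB (0.414%), ETS (CCGGAAGT, 3.23%) and CRE (TGACGTCA, 1.77%) were not in the members' windows. None of these motifs overlaps another in the printed windows, and a match is a description of the letters, not of a bound site. The Glrx window, chr13:75839635-75839884 on the plus strand, belongs to a gene that was higher in KO, and its match TGACTCA starts 98 bases before the start. The Xkrx window, chrX:134162960-134163209 on the minus strand, belongs to a gene that was lower in KO, and its match TGATTCA starts 215 bases before the start. These starts are from RefSeq and differ from the GENCODE gene positions given below. Against those positions the Xkrx window lies wholly upstream, the Glrx window runs into the Glrx gene and the Lgmn window with the E-box lies inside the Lgmn gene. Capitals mark the AP-1 letters, and both sequences run 5′ to 3′ on the gene's strand.
Glrx: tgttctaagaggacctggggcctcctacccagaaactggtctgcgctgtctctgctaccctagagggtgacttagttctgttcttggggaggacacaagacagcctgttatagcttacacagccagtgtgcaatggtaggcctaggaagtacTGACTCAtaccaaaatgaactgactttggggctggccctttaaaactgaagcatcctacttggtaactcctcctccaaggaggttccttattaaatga
Xkrx: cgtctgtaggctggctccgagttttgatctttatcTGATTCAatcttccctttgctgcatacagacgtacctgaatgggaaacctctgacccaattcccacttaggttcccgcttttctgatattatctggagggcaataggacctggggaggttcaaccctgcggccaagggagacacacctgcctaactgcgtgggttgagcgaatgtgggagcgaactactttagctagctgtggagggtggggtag

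The libraries held between 22037995 and 40754492 counts in genes. Foxp3 read 446 to 671 CPM (the usual count scaled by sequencing depth, with library sizes adjusted by the trimmed mean of M-values, TMM) in thymic Treg cells and 1.07 to 3.49 CPM in CD4SP cells, so its level followed the sort. By genotype, Foxp3 read 642.5 to 671 CPM in WT and 446 to 614 in KO thymic Treg cells (log2 -0.26, edgeR adjusted p = 0.0561, not called). In CD4SP cells it read 3.23 to 3.49 CPM in WT and 1.07 to 1.91 in KO (log2 -1.245, edgeR adjusted p = 8.27e-05). The enhancer lies outside the exons, and exon counts do not check the deletion. The 8 Treg markers summed to 6053 to 7848 CPM in the Treg libraries of both organs and to 320 to 620 CPM in CD4SP cells. Some features of the thymic Treg libraries moved with genotype. Of the 18 myeloid markers listed, 16 were in the files and 0 were at 0 in thymic Treg cells. Their summed level was 389, 263 and 229 CPM in WT and 837, 1136, 471 and 430 CPM in KO, with 3 of 16 past the edgeR test as higher in KO. Of the 13 activated Treg markers, 9 were called higher in KO thymic Treg cells and 0 lower (sum 3116 to 3305 CPM in WT and 4029 to 4152 in KO), and 13 of 13 were higher in the aTreg state of WT mice. Of the 10 resting T cell markers, 4 were called lower there and 1 was higher, with overlapping sums (5994 to 6548 and 5511 to 6129 CPM). The 7 CD8 T cell markers summed to 314 to 366 CPM in WT and 466 to 548 in KO with 1 call each way, Ccl5 higher (log2 0.96) and Eomes lower (-1.47), while the defining genes Cd8a (9.25 CPM in WT, 7.22 in KO) and Cd8b1 (43.8 and 41.2) were not called. The sums of the 10 B cell markers (35.2 to 38.9 CPM in WT and 50.7 to 55.5 in KO, with Pax5 at 0 in WT) and of the 10 dendritic cell markers (110 to 128 and 135 to 173) did not overlap either, yet 0 genes of either list were called higher by edgeR and 1, Cr2 of the B cell list, was called lower. Reads outside annotated genes (the no-gene share) made up 46.3 to 49.3% in WT and 42.3 to 45.0% in KO. The part of these in the KO differences below was not tested. Values with the myeloid sum or the no-gene share as a covariate stand beside some of the results they move. A result given without such values may move too. The marker calls of this paragraph are from the edgeR fit with no covariate, and no covariate values are given for them. Beside them, 4.21% of all genes tested passed as higher and 5.13% as lower for KO against WT in thymic Treg cells. With the no-gene share as a covariate, the 1246 genes past that test became 45. In thymic Treg cells that share did not overlap between the genotypes, so a fit with it separates share and genotype poorly. Here and below, a call lost in such a fit can come from a wider error as well as from a smaller difference. Which of these applied was not tested. For WT aTreg against rTreg cells, 19.9% of all genes passed as higher and 18.1% as lower.

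**Figure D1:**
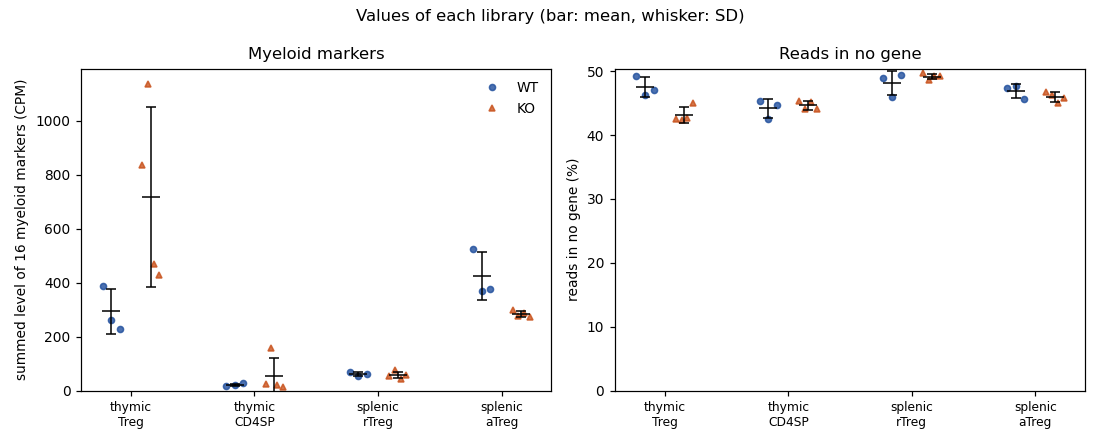
Summed level of the 16 myeloid markers (left, CPM) and no-gene share in percent (right) in each library, by population and genotype, with bars for means and whiskers for SDs. KO thymic Treg libraries 1 and 2, at 837 and 1136 CPM of myeloid markers, stand above the others, and the no-gene shares of KO and WT thymic Treg libraries do not overlap.

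The name under which the genes were grouped holds only in part. The log2 difference of KO from WT in thymic Treg cells ran from 0.61 to 0.72 for the 5 higher genes and from -1.41 to -1.01 for the 4 lower ones. In CD4SP cells, 8 of the 9 genes lay between -0.08 and 0.14. Samd3 stood at 0.77 ± 0.40 (SE) with the opposite sign, on 22 to 28 counts in WT and 21 to 60 in KO. Without KO CD4SP library 2 the Samd3 value was 0.39. That library had the highest sums of the CD4SP libraries for myeloid (157 CPM), NK cell (88.5) and B cell markers (38.0). The other KO CD4SP libraries read 13.9 to 23.3, 3.72 to 7.73 and 7.15 to 8.33 CPM for these. The part of this in the Samd3 value was not tested. In splenic rTreg cells Cdca7l (0.34) and Prr13 (0.28) were shifted the same way as in the thymus, and so were Syngr2 (0.18), Samd3 (-0.95), Fibcd1 (-0.65) and Xkrx (-0.48). In splenic aTreg cells the 4 lower genes were again below WT, from -0.16 for Samd3 to -0.81 for Lypd6b, while Lgmn (-0.38) and Glrx (-0.23) were below WT against their thymic direction. The genes are therefore called by their choice, as those changed more in thymic Treg cells, and not as changed there only.

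As background for these values, 4.21% of the 13338 genes tested were called higher in KO thymic Treg cells and 5.13% lower, and all 9 members are among them because they were chosen there. Calls for KO against WT covered 0.195% of genes in CD4SP cells, 0.135% in rTreg cells and 0.0300% in aTreg cells. The KO effect in thymic Treg cells less the mean effect in the other 3 populations, which the choice used too, was called for 1.43% of all genes, and for 0 in edgeR with the no-gene share as a covariate (663 at an unadjusted p under 0.05). The members' values of it are given with no test. They were 0.89 for Lgmn, 0.75 for Glrx, 0.59 for Syngr2, 0.54 for Prr13, 0.51 for Cdca7l and -1.21 for Lypd6b (log2). For Samd3 it was -1.13 ± 0.40 (SE), for Xkrx -0.76 ± 0.24 and for Fibcd1 -0.65 ± 0.31. With the no-gene share as a covariate the value was 0.62 for Lgmn, 0.45 for Syngr2 and 0.43 for Prr13.

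**Figure D2:**
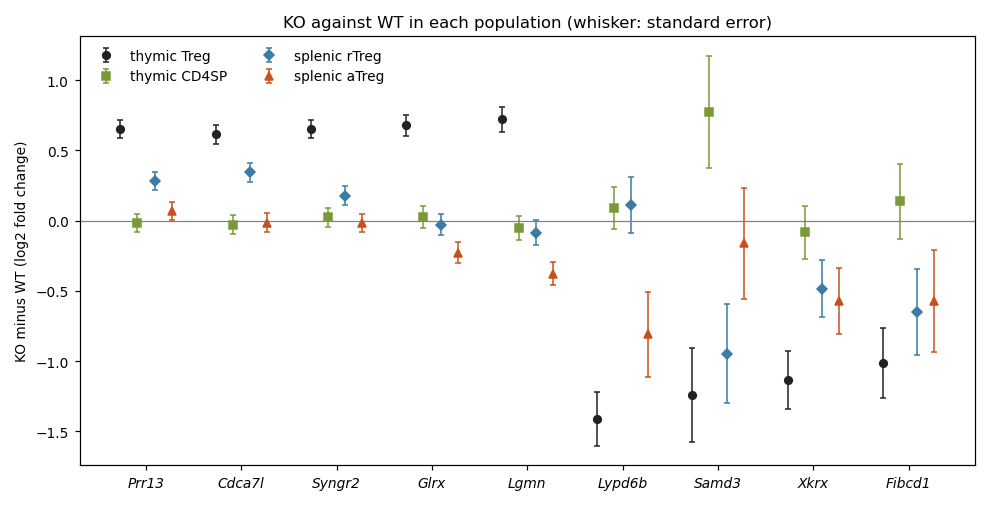
Log2 fold change of KO against WT for each of the 9 genes in the 4 populations, with standard errors as whiskers. The thymic Treg values sit at 0.61 to 0.72 for the 5 higher genes and at -1.41 to -1.01 for the 4 lower genes, and the values of the other populations lie nearer 0 for all 9 genes, with Samd3 in CD4SP cells at 0.77 ± 0.40.

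Glrx encodes glutaredoxin, a small enzyme that uses glutathione to reduce disulfides on proteins, and it lies at chr13:75839868-75850154 on the plus strand (GRCm38). In thymic Treg cells it read 46.6, 47.3 and 52.1 CPM in WT and 80.5, 70.1, 80.1 and 80.5 CPM in KO, a log2 difference of 0.68 ± 0.077 (SE). The 4 KO libraries lay above all 3 WT libraries. In aTreg cells the order was the other way round, with 388, 368 and 420 CPM in WT and 347, 360, 309 and 322 CPM in KO (log2 difference -0.23 ± 0.074), again without overlap. The genotypes overlapped in rTreg cells (69.8 to 82.5 CPM in WT, 68.3 to 78.7 in KO) and in CD4SP cells (30.0 to 34.9 in WT, 32.3 to 36.3 in KO).

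In WT, Glrx had the largest log2 difference of the 9 genes between the splenic populations, while in KO Lypd6b (-2.26) was slightly ahead of it. WT aTreg cells held 392 ± 26.4 CPM (mean ± SD, here and below over 3 WT or 4 KO libraries) and WT rTreg cells 75.1 ± 6.59, a 5.22-fold difference (log2 2.38 ± 0.084 SE, edgeR adjusted p = 4.09e-18). KO cells showed 335 ± 23.0 against 73.6 ± 4.63 CPM (log2 2.19 ± 0.072, edgeR adjusted p = 7.99e-19). The KO thymic level of 77.8 ± 5.13 CPM overlapped that of KO rTreg cells and stayed below every aTreg library. Within WT the order was aTreg, rTreg, thymic Treg and CD4SP cells, with each step clear of overlap between libraries.

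Lgmn encodes legumain, a lysosomal protease that cuts after asparagine and is abundant in myeloid cells as well as in some Treg cells. It lies at chr12:102394084-102439813 on the minus strand. Thymic Treg cells read 41.5, 47.7 and 48.9 CPM in WT and 79.2, 85.8, 74.8 and 63.6 CPM in KO, a log2 difference of 0.72 ± 0.087. All KO libraries lay above the WT ones, and the 2 with the highest myeloid sums also had the highest Lgmn. Without those 2 libraries the difference was 0.58 ± 0.093, with the myeloid sum as a covariate it was 0.73 ± 0.10, and with the no-gene share as a covariate it was 0.46 ± 0.11. In CD4SP cells, where the WT myeloid sum was 18.8 to 27.1 CPM, Lgmn stood at 66.2, 67.2 and 67.5 CPM in WT, above the level in WT thymic Treg cells.

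In the spleen Lgmn was 3.27-fold higher in WT aTreg cells (148, 148 and 162 CPM) than in WT rTreg cells (44.5, 49.6 and 46.0 CPM), with an edgeR adjusted p of 6.23e-14. The libraries of the 2 states lay far apart. KO aTreg cells read 115, 120, 133 and 103 CPM, all below the WT aTreg libraries, and KO rTreg cells 41.2 to 47.6 CPM, and the difference between the KO states was log2 1.42 ± 0.081 (edgeR adjusted p = 7.04e-14). Lgmn RNA was higher in KO than in WT thymic Treg cells and lower in KO than in WT aTreg cells, each without overlap between the genotypes. The choice used both of these differences, so they are described with no test. How many other genes lay without overlap was not counted. The myeloid sum moved with both: it was 369 to 526 CPM in WT aTreg libraries against 273 to 299 CPM in KO ones and 54.5 to 67.8 CPM in WT rTreg libraries, and 14 of the 16 markers passed the edgeR test as higher in the aTreg state of WT mice. With the myeloid sum as a covariate the Lgmn difference between WT aTreg and rTreg cells and its call remained, and its range over the alternatives other than single-library ones was 1.64 to 1.74.

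Syngr2 encodes synaptogyrin 2, a multi-span protein of small vesicles that is also found outside neurons. It lies at chr11:117809668-117814283 on the plus strand and overlaps the predicted gene Gm20708 on the same strand, which may share its reads. Thymic Treg cells read 169, 168 and 178 CPM in WT and 284, 246, 276 and 271 CPM in KO, with no overlap (log2 difference 0.65 ± 0.066). This placed KO thymic Treg cells above KO aTreg cells (187 to 200 CPM), an order not seen in WT, where aTreg cells were highest (194, 185 and 206 CPM). WT rTreg cells read 104, 104 and 97.7 CPM and KO rTreg cells 111, 118, 117 and 115 CPM, again apart (0.18 ± 0.066), and CD4SP cells 38.6 to 43.9 CPM. The aTreg level was 1.91-fold that of rTreg cells in WT (edgeR adjusted p = 2.45e-11) and 1.67-fold in KO (edgeR adjusted p = 1.10e-10). With the no-gene share as a covariate, the thymic KO difference was 0.52 ± 0.091.

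Prr13 encodes a small proline-rich protein, also called TXR1, that has been tied to repression of thrombospondin 1 in tumour cells. It lies at chr15:102459028-102462806 on the plus strand. In thymic Treg cells it read 331, 320 and 337 CPM in WT and 559, 474, 535 and 499 CPM in KO (log2 difference 0.65 ± 0.066). This difference was 0.55 ± 0.094 with the no-gene share as a covariate. KO rTreg cells, at 438, 460, 470 and 472 CPM, also lay above WT rTreg cells at 374, 398 and 365 CPM (0.28 ± 0.065). In aTreg cells the genotypes overlapped, with 719, 631 and 776 CPM in WT and 734 to 751 CPM in KO. The WT aTreg level was 1.87-fold that of WT rTreg cells (edgeR adjusted p = 3.71e-11), and the KO aTreg level 1.61-fold that of KO rTreg cells (edgeR adjusted p = 3.20e-10). CD4SP cells held 104 to 121 CPM over both genotypes, the lowest level of the 4 populations. Prr13 was the most abundant of the 9 genes also per transcript length, at 211 CPM per kb of exon in WT thymic Treg cells, with Syngr2 next at 96.6.

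Cdca7l encodes a nuclear zinc finger protein that binds Myc and belongs to the CDCA7 family. It lies at chr12:117804289-117878706 on the plus strand, across from Dnah11 on the other strand. In thymic Treg cells it read 29.7, 27.5 and 32.1 CPM in WT and 48.6, 44.5, 42.0 and 47.0 CPM in KO (log2 difference 0.61 ± 0.068). The rTreg libraries were apart as well, at 35.8, 37.0 and 35.3 CPM in WT and 48.7, 45.5, 44.8 and 43.9 CPM in KO (0.34 ± 0.067), while aTreg cells read 38.7 to 41.1 CPM in WT and 38.1 to 40.9 in KO. Cdca7l was the member with the flattest profile, with 1.35-fold between the highest and lowest population means in WT. The splenic states differed little: aTreg less rTreg was 0.16 ± 0.071 in WT and did not pass (edgeR adjusted p = 0.0815), and -0.20 ± 0.062 in KO and passed as lower (edgeR adjusted p = 0.0102). The WT value passed with median-ratio size factors in edgeR (0.18, adjusted p = 0.0420) and in DESeq2 (0.18, adjusted p = 0.0348). The KO call was lost with the no-gene share (edgeR adjusted p = 0.0734) or the myeloid sum (edgeR adjusted p = 0.171) as a covariate, so neither genotype gave a steady difference.

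Lypd6b encodes a protein of the LY6/PLAUR family, which carries a three-finger domain and is tethered to the outer cell membrane. It lies at chr2:49787688-49948849 on the plus strand. CD4SP cells held most of it, with 48.1, 47.0 and 51.1 CPM in WT and 52.6, 45.0, 52.0 and 58.0 CPM in KO, which overlapped. Thymic Treg cells read 3.69, 3.39 and 4.67 CPM in WT and 1.12, 1.18, 1.76 and 1.86 CPM in KO (33 to 66 counts), a log2 difference of -1.41 ± 0.19 without overlap. The KO thymic libraries thus overlapped the KO rTreg libraries, at 1.51 to 2.67 CPM. WT rTreg cells (1.98, 2.02 and 2.15 CPM) were above WT aTreg cells (0.439, 1.14 and 0.864 CPM, 13 to 31 counts), with a log2 difference of -1.34 ± 0.25 (edgeR adjusted p = 8.90e-05). In KO the same difference was -2.26 ± 0.24 (edgeR adjusted p = 1.76e-08). Against CD4SP cells, WT rTreg cells were 23.7-fold lower and WT aTreg cells 60.0-fold lower (edgeR adjusted p = 2.93e-17 and 6.43e-19), the widest range among the 9 genes.

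Xkrx encodes a multi-span membrane protein related to the XK blood group protein. It lies at chrX:134149043-134162076 on the minus strand and overlaps Nox1 on the same strand, which read 3.01 CPM in WT aTreg cells and at most 1.04 CPM in any library outside aTreg cells. Xkrx followed the same order as Lypd6b in WT, with 29.4, 36.4 and 26.6 CPM in CD4SP cells as the top. Thymic Treg cells read 8.67, 8.95 and 8.85 CPM in WT and 4.13, 2.79, 3.19 and 5.77 CPM in KO (log2 difference -1.14 ± 0.21), with the KO libraries lower and more scattered. The WT rTreg libraries (7.84, 9.24 and 8.79 CPM) overlapped the WT thymic Treg ones, and KO rTreg cells lay lower at 5.38 to 6.73 CPM (-0.48 ± 0.20). WT aTreg cells held 4.49, 3.72 and 2.26 CPM, 2.47-fold lower than WT rTreg cells (edgeR adjusted p = 4.34e-05), and KO aTreg cells 1.47 to 2.86 CPM, 2.63-fold lower than KO rTreg cells (edgeR adjusted p = 5.25e-06). With the myeloid sum as a covariate the WT call was lost (log2 difference -0.81, edgeR adjusted p = 0.0502).

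Fibcd1 encodes a transmembrane receptor with a fibrinogen-like domain that binds acetylated structures such as chitin. It lies at chr2:31813290-31846005 on the minus strand. WT thymic Treg cells were its highest population, at 7.63, 8.42 and 9.40 CPM, and KO thymic Treg cells read 4.41, 4.01, 4.03 and 4.33 CPM (log2 difference -1.01 ± 0.25). The KO libraries were tightly grouped near 4 CPM and below all WT ones. With the no-gene share as a covariate the difference was -0.67 ± 0.39. CD4SP cells held 1.67 to 2.44 CPM over both genotypes. The splenic levels were near the limit of the counts, with 0.551, 0.787 and 1.31 CPM in WT rTreg cells (17, 23 and 48 counts) and 0.540, 0.552 and 0.233 CPM in WT aTreg cells (16, 15 and 7 counts). These overlapped, and the log2 difference of -1.01 ± 0.34 passed (edgeR adjusted p = 0.0194) but did not without WT rTreg library 3 (-0.60, edgeR adjusted p = 0.208) or without WT aTreg library 3 (-0.70, edgeR adjusted p = 0.134). The call was lost as well in limma voom (adjusted p = 0.0663). In edgeR it was also lost with only the groups compared (adjusted p = 0.151) and with the myeloid sum as a covariate (adjusted p = 0.261).

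Samd3 encodes a protein with a sterile alpha motif, a fold through which proteins bind one another. It lies at chr10:26229707-26272172 on the plus strand. Like Fibcd1 it was highest in WT thymic Treg cells, at 11.9, 7.19 and 8.75 CPM, against 5.12, 3.15, 3.43 and 3.94 CPM in KO (log2 difference -1.24 ± 0.33, without overlap). It had the widest error of the 4 lower genes in this contrast: the difference was -0.88 ± 0.54 with the no-gene share as a covariate and -1.64 ± 0.33 with the myeloid sum. WT rTreg cells read 5.15, 3.15 and 3.32 CPM and KO rTreg cells 1.73, 2.15, 1.67 and 2.48 CPM, which were apart as well (-0.95 ± 0.35). In CD4SP cells KO libraries read 1.72, 2.16, 0.735 and 0.575 CPM and WT libraries 0.681 to 0.816 CPM, so 2 KO libraries were above WT and 1 was below all of them. WT aTreg cells, at 0.473, 1.58 and 1.40 CPM, were 3.37-fold below WT rTreg cells (edgeR adjusted p = 8.27e-04), and KO aTreg cells 1.95-fold below KO rTreg cells (edgeR adjusted p = 0.0300).

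**Figure D3:**
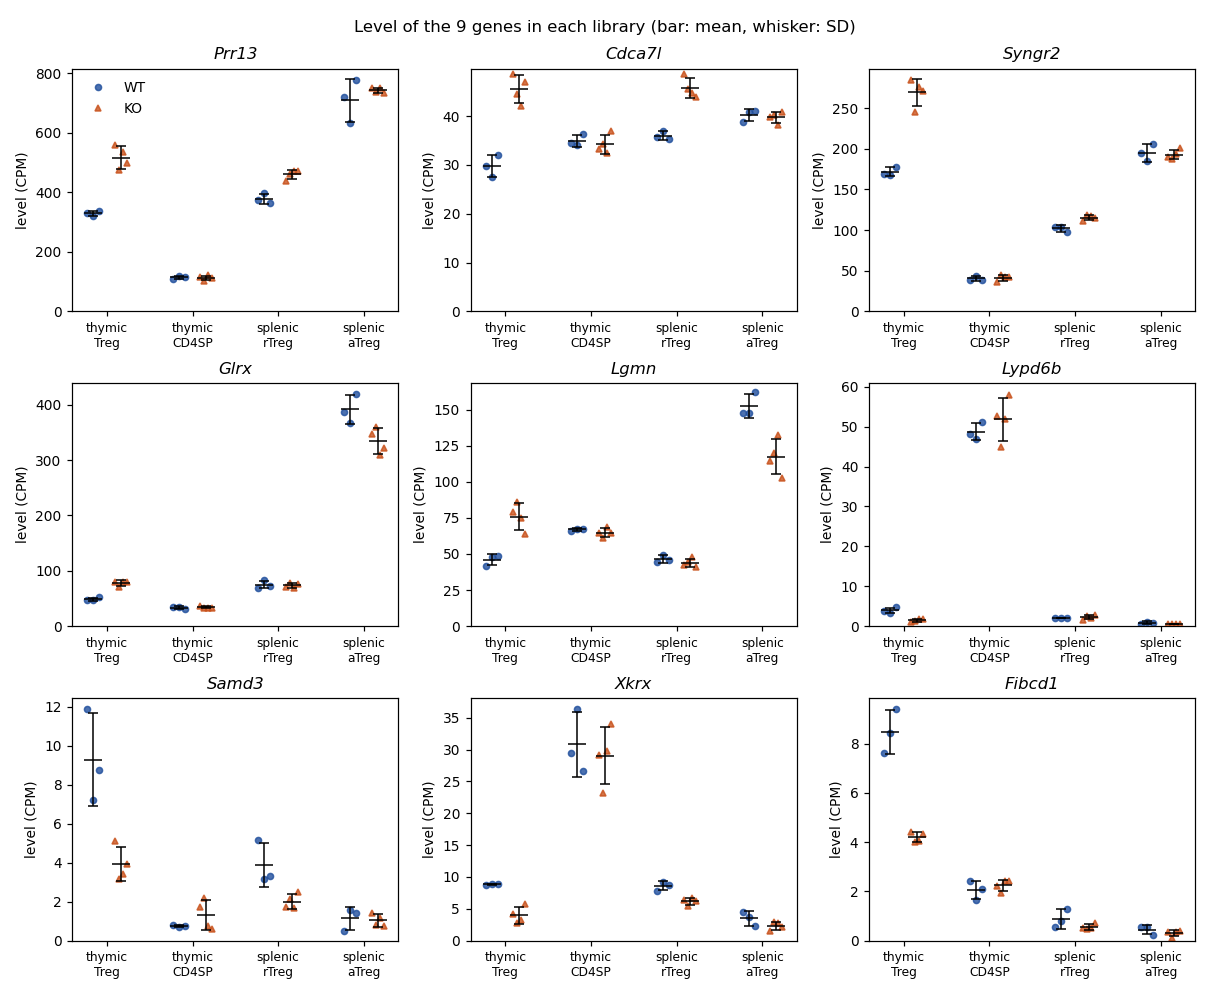
Level of each of the 9 genes in CPM in every library, by population, with circles for WT, triangles for KO, bars for means and whiskers for SDs. Glrx and Lgmn peak in aTreg cells with KO below WT there, Lypd6b and Xkrx peak in CD4SP cells, and Samd3 and Fibcd1 peak in WT thymic Treg cells.

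Read together over the contrasts the choice did not use, 8 of the 9 genes differed between WT aTreg and WT rTreg cells. Glrx, Lgmn, Syngr2 and Prr13 were higher in aTreg cells, against a background of 19.9% of genes called higher, and Lypd6b, Samd3, Xkrx and Fibcd1 were lower, against 18.1% called lower. Of the 1246 genes called for KO in thymic Treg cells, which include these 9, 816 also passed this WT test, so most such genes differed there. The median log2 difference was 0.94 over the 5 genes higher in KO thymic Treg cells and -1.32 over the 4 lower ones, beside -0.01 over all genes tested. In KO the same 4 genes were higher (background 21.7%), and those 4 lower genes plus Cdca7l were lower (background 19.9%). The choice asked for small KO effects in the spleen, so the likeness of the 2 genotypes is partly fixed by it. Over the alternatives run, 6 to 9 of the 9 genes passed in WT and 6 to 9 in KO. The calls of Samd3 (edgeR adjusted p = 0.0300) and Fibcd1 (edgeR adjusted p = 0.0247) in KO were each lost in 6 of 16 alternatives, among them leaving out KO rTreg library 4 or KO aTreg library 2.

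The sign of the KO difference in thymic Treg cells matched that of the aTreg and rTreg difference in WT for all 8 genes past that test. The same held for 771 of the 816 genes past both tests over the whole table (94.5%), so the match is not particular to these 9 genes. The sizes varied among the members. The thymic KO difference was 28.4% of the splenic one on the log2 scale for Glrx and 42.1% for Lgmn, and 69.6% for Syngr2 and 71.9% for Prr13. For the 4 lower genes it ran from 71.0% (Samd3) to 105% (Lypd6b). Cdca7l had a thymic KO difference of 0.61 beside splenic ones of 0.16 in WT, not called, and -0.20 in KO, a call lost with either covariate.

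**Figure D4:**
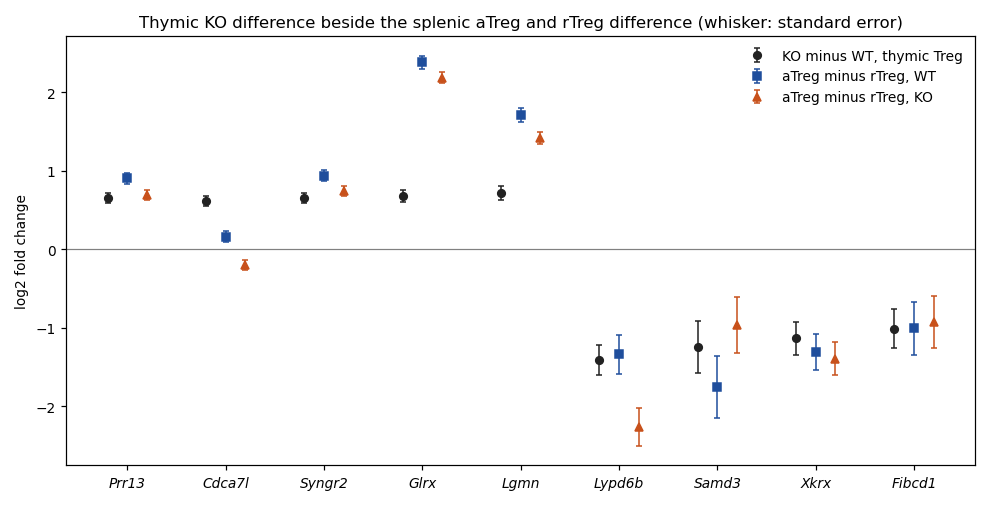
Log2 fold change of KO against WT in thymic Treg cells (black circles) beside aTreg against rTreg in WT (blue squares) and in KO (orange triangles) for the 9 genes, with standard errors as whiskers. Glrx and Lgmn have splenic differences of 2.38 and 1.71 beside thymic ones of 0.68 and 0.72, and Cdca7l has the splenic values nearest 0, at 0.16 in WT and -0.20 in KO.

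Against thymic CD4SP cells, where tissue and cell type change together and cannot be told apart, 8 genes differed in WT rTreg cells. Samd3 (log2 2.37), Prr13 (1.72), Syngr2 (1.33) and Glrx (1.18) were higher in rTreg cells, where 23.3% of all genes were called higher. Lypd6b (-4.57), Xkrx (-1.84), Fibcd1 (-1.20) and Lgmn (-0.52) were lower, where 19.7% were called lower. In WT aTreg cells the 5 genes raised in KO thymic Treg cells were called above CD4SP cells (background 29.0%), from 0.20 for Cdca7l (edgeR adjusted p = 0.0177) to 3.56 for Glrx, and Lypd6b, Xkrx and Fibcd1 were below (background 26.3%). The Cdca7l call was lost in 5 of 14 alternatives: with no filter on low counts, with the no-gene share or the myeloid sum as a covariate (edgeR adjusted p = 0.0757, 0.0537 and 0.235), and without WT CD4SP library 1 or WT aTreg library 2 (0.0505 and 0.0508). Samd3 did not pass there (0.62, edgeR adjusted p = 0.227). In bulk libraries such as these, fewer cells that express a gene and less RNA per cell cannot be told apart.

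The members' profiles over the 8 group means fell into a few shapes, described here by Pearson's r of log2 CPM over 8 means that share libraries and sorts. Lypd6b and Xkrx ran together (0.98) and both ran opposite to Prr13 (-0.995 and -0.98), while Prr13 and Syngr2 were alike (0.91). Among 8940 other genes the closest to Lypd6b was Elovl7, a fatty acid elongase, and then Pde3b, a phosphodiesterase of cyclic nucleotides (0.998 and 0.997). Pde3b read 12.9 CPM in WT and 6.64 CPM in KO thymic Treg cells beside 156 CPM in WT CD4SP cells. The closest to Xkrx was Cenpj, a centriole protein (0.999), and the closest to Prr13 was Pglyrp1, a peptidoglycan recognition protein (0.998), with 67.1 CPM in WT and 105 CPM in KO thymic Treg cells and 159 CPM in WT aTreg cells. Glrx was closest to Vamp8 and Lamtor4, which act at endosomes and lysosomes (both 0.993), Syngr2 to Mif4gd (0.995), Lgmn to Ech1 (0.990), Fibcd1 to Enox2 (0.990) and Samd3 to Bbx (0.980). Cdca7l had the weakest closest gene, Tomm40l (0.927). Izumo4 was as close to Prr13 as Pglyrp1 was (0.998), at 34.8 CPM in WT and 38.9 CPM in KO thymic Treg cells. Such an r follows the shape of a profile and not its size. Bbx read 129 CPM in WT and 120 CPM in KO thymic Treg cells, and Enox2 23.6 and 22.9 CPM.

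The relatives of the members were followed in 8 fixed lists without the members, in the same tests. Their counts are to be read beside the shares over all genes, in KO thymic Treg cells 4.21% called higher and 5.13% lower, and 19.9% and 18.1% in WT aTreg cells; no test compared the lists with other genes or with each other. Of 21 genes of the glutaredoxin and thioredoxin system, which keeps thiols reduced, 5 were higher in KO thymic Treg cells and 0 lower (median log2 0.22, beside 0.02 over all genes), and 0 were called by edgeR with the no-gene share as a covariate (3 at an unadjusted p under 0.05). They included Gpx1 (317 against 233 CPM, log2 0.45, edgeR adjusted p = 0.00189) and Prdx4 (0.57, edgeR adjusted p = 0.00345). In WT aTreg against rTreg cells 7 were higher and 2 lower, with Txnip, an inhibitor of thioredoxin, lower (-0.71, edgeR adjusted p = 1.46e-06) and Srxn1, sulfiredoxin, at 348 against 2 counts (ratio 202, 95% counting interval 56.0 to 1670). Of 19 cathepsins, cystatins and related lysosomal genes around Lgmn, 6 were higher in KO thymic Treg cells and 0 lower (median 0.22), of which 1 call was left with that covariate, and 11 were higher and 2 lower in aTreg cells (median 0.44). Cst7, cystatin F, was higher in both, at 38.0 against 24.8 CPM in KO thymic Treg cells (edgeR adjusted p = 6.04e-04) and at 219 against 40.0 CPM in WT aTreg cells (edgeR adjusted p = 1.07e-15). Ctsz and Ctsb were higher in both as well (log2 0.40 and 0.35 in KO thymic Treg cells). The Ctsb call in KO thymic Treg cells was lost without KO libraries 1 and 2 (log2 0.20, edgeR adjusted p = 0.123). With the no-gene share as a covariate the Ctsz and Ctsb calls there were lost (edgeR adjusted p = 0.0863 and 0.409). Over the 8 lists, 29 genes were called higher and 12 lower in WT aTreg cells, and 13 and 11 with the myeloid sum as a covariate.

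The lists around the other members were shorter, with 3 to 8 genes tested. Of the CDCA7 family and partners, 1 of 7 changed in KO thymic Treg cells, Max, the partner of Myc, which was lower (-0.59, edgeR adjusted p = 0.0207, lost in 7 of 16 alternatives). Myc itself was lower in WT aTreg cells (-1.08), where Hells and Uhrf1, both partners in DNA methylation, were higher (1.10 and 1.13). The Hells and Uhrf1 calls were lost with the myeloid sum as a covariate (log2 0.34 and 0.45, edgeR adjusted p = 0.325 and 0.373). In the synaptogyrin and physin family 1 of 5 changed, Syp, which was lower in KO thymic Treg cells (4.57 against 8.95 CPM, edgeR adjusted p = 0.00153) while Syngr2 was above WT. Around Lypd6b, 2 of 8 LY6/PLAUR genes were higher, Ly6a at 251 against 131 CPM (edgeR adjusted p = 1.27e-05) and Ly6e (0.25, lost in 8 of 16), the opposite direction to Lypd6b, and Ly6c1 was lower in WT aTreg cells (-3.29). Ly6 genes are close copies of one another, and how the counting split their reads is uncertain. Of the XK family Xkr5 was called higher (1.13, 1 of 3, lost in 9 of 16), of the fibrinogen-domain proteins Fgl2 was called higher (log2 1.05, 1 of 8, lost in 7 of 16), and Xkrx and Fibcd1 were below WT. The SAM domain list of 8 had 0 calls in KO thymic Treg cells by edgeR (2 genes at an unadjusted p under 0.05), by DESeq2 and by limma voom. Over the 8 lists the 17 calls in KO thymic Treg cells fell to 3 with the no-gene share as a covariate and to 7 without KO libraries 1 and 2, and ran from 8 (without WT library 2) to 23 (without KO library 4) when single libraries were left out.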

How the data were processed

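The deposited files hold the authors' raw counts per gene symbol, 1 file per library. Per the submitters' processing notes, Trimmomatic, STAR, HTSeq and the mm10 build were used; their versions, the annotation and whether strand was used are not given in the sources used for this text, and overlapping genes may share reads. TRIzol extraction, SMART amplification and read pairs from an Illumina HiSeq are described per the labels' protocols. HTSeq's summary lines entered neither library sizes nor tests; the no-gene line took 42.3 to 49.7% of the reads it shares with genes and ambiguous reads.

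All 28 libraries entered 1 quasi-likelihood fit in edgeR 4.0.16 (R 4.3.3) with a mean per group, TMM factors of 0.970 to 1.04 and filterByExpr, which kept 13338 genes. There were 20 residual degrees of freedom and a biological coefficient of variation of 12.7%. P-values were adjusted by Benjamini-Hochberg over the 13338 genes and called under 0.05. CPM levels use the TMM-scaled sizes of the libraries. The fit was tested on simulated counts. No pair of libraries of 1 group agreed within sampling noise (chi-square per degree of freedom 7.08 to 37.6).

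The members, gene lists and tests were chosen with earlier results of these data known. Named genes are the 9 members, Foxp3, the genes closest to each member by Pearson's r over group means (from those with at least 8 CPM in a group) and up to 3 genes with the smallest p in each list and contrast; of these the text gives a part. Positions are from GENCODE M21 (GRCm38), where 21777 symbols matched. Same-numbered KO aTreg and rTreg libraries deviated together (r 0.121 to 0.232 in all 4 pairs), a pairing seen in the data and not stated in the labels. Alternatives were other size factors, no filter, DESeq2 1.42.0, limma 3.58.1 with voom, only the groups compared, a replicate block, 2 covariates and leaving out libraries.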

Additional observations from a re-analysis of the deposited data

Results flagged for a closer look

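Glrx in KO thymic Treg library 2 stood apart from the other 3 KO thymic Treg libraries, at 70.14 CPM against 80.1, 80.5 and 80.5 CPM. Its gap to the next library was 0.96 of the range of the group, above the 95% critical value of Dixon's test for 4 samples. Of 36 groups of 4 libraries examined this was the 1 to pass it, and chance alone passes about 1 in 20. All 4 KO libraries were above the 3 WT libraries.

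Glrx and Lgmn moved in opposite directions in the thymic Treg and splenic aTreg cells: every KO library lay above every WT library in thymic Treg cells and below every WT library in aTreg cells. The KO difference in thymic Treg cells less that in aTreg cells was 0.90 for Glrx and 1.10 for Lgmn on the log2 scale. The difference was not tested, because the members were chosen on it, and how many other genes lay without overlap was not counted. The summed myeloid markers moved the same way, at 430 to 1136 CPM in KO against 229 to 389 in WT thymic Treg cells and at 273 to 299 in KO against 369 to 526 in WT aTreg cells, and their part in it was not tested.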

How the results depend on the processing

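Of 522 alternative values of the members in the tested contrasts, 494 kept direction and side of the threshold, 25 lost their call, 2 gained one and 1 turned: Samd3 in WT aTreg against CD4SP cells, 0.62 and not called, was -0.85 with the myeloid sum as covariate. Members past the test numbered 7 to 8 (WT aTreg against rTreg), 7 to 9 (KO), 8 (WT rTreg against CD4SP) and 7 to 8 (WT aTreg against CD4SP) when single libraries were left out. Of the 873 described KO values, 863 moved by less than the spread between libraries. The other 10 were all in the KO difference in thymic Treg cells or in the difference of effects. With the no-gene share as covariate they were Prr13, Syngr2, Lgmn, Samd3 and Fibcd1 in the former and Prr13, Syngr2 and Lgmn in the latter. The rest were Samd3 in the former with the myeloid sum and Lgmn in the latter without KO thymic Treg libraries 1 and 2. With the myeloid sum as covariate, the 5060, 5555 and 7370 genes called for WT aTreg against rTreg, KO aTreg against rTreg and WT aTreg against CD4SP were 2432, 2826 and 3975. The 1246 genes called for KO in thymic Treg cells were 45 with the no-gene share as covariate, 766 with the myeloid sum, 450 without KO libraries 1 and 2, and 497 (without WT library 1) to 1699 (without KO library 4) without single libraries. The 191 genes called for the difference of effects were 478 in DESeq2, 343 with the replicate block, 58 without those 2 libraries, 62 to 457 without single libraries and 0 in edgeR with the no-gene share, where 663 had an unadjusted p under 0.05. In CD4SP cells 26 calls were 55 in DESeq2, 4 in voom, 0 in edgeR with only the groups compared (406 unadjusted) and 15 to 35 without single libraries. In rTreg cells 18 were 48 in DESeq2, 28 in voom, 31 with the myeloid sum and 6 to 14 without single libraries. In aTreg cells 4 were 13 in DESeq2 and with the no-gene share, 8 in voom and with the myeloid sum, 7 with only the groups compared, 12 with the replicate block, and 0 (edgeR without WT library 2, 809 unadjusted) to 6 without single libraries. The causes were not tested. The replicate block changed no member's call. Same-numbered WT aTreg and rTreg libraries had r of 0.0584 to 0.212, beside -0.164 to 0.0771 for other numbers. Same-numbered KO and WT thymic Treg libraries had r of -0.00861 to 0.150, beside -0.175 to 0.0908 for other numbers. Over all pairs within a genotype the median r was 0.104 for the same number and -0.0408 for other numbers. The labels state no pairing, and the main fit used none. Fibcd1, Samd3 and Lypd6b rest on as few as 4, 14 and 10 counts in aTreg libraries, which limits their fold changes.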
